A study of Rattus norvegicus with 9 samples.

Results

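The genes described here encode the receptors that open an ion channel when a transmitter binds, namely the subunits of glutamate, GABA-A, glycine, nicotinic acetylcholine, serotonin and ATP receptors, together with the metabotropic glutamate receptors and the GABA-B receptors, which signal through G proteins. Members were chosen by symbol alone: every gene whose single annotated symbol begins with Gria, Grid, Grik, Grin or Grm followed by a digit, Gabr, Gabbr, Glra, Chrn, Htr3 or P2rx. This gave 66 of the 4736 genes with a single symbol on the array, covered by 105 of 8740 probe sets, and each gene is given at its brightest probe set unless another is named. Neurons were taken from the superior cervical ganglia of Holtzman rats at embryonic day 21, were grown without serum with nerve growth factor at 100 ng/ml, and were treated with Ara-C for 48 hr to deplete non-neuronal cells. On day 5 in vitro they received medium alone for 24 hr (control) or BMP-7 at 50 ng/ml for 6 hr (BMP6h) or 24 hr (BMP24h), and these 3 conditions are compared to find early and later changes in transcript levels after BMP-7 is added. Each condition has 3 Affymetrix rat genome arrays from 3 independent dissections, the cultures of all 3 conditions in 1 experiment sharing a dissection, and each array carries RNA pooled from several cultures, with replicate 1 hybridized in batch 1 (10 µg of cRNA) and replicates 2 and 3 in batch 2 (5 µg). All values below are log2 expression values, or differences between such values where a fold change is named.

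Ligand-gated receptors are assembled from several subunits, so the subunits that a neuron transcribes limit which receptors it can build. In sympathetic ganglia, fast transmission runs through nicotinic receptors built mainly from the alpha3 and beta4 subunits, while ATP, serotonin and GABA also open channels on these neurons. Metabotropic glutamate and GABA-B receptors act more slowly, and many of them sit on nerve terminals and reduce transmitter release. BMP-7 is a secreted growth factor that acts through Smad proteins, which bind the letters CAGAC and GC-rich stretches such as GGCGCC in DNA.

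Grm7 gave the largest difference of any member. Gabbr2 was the member whose arrays, at its brightest probe set, stood above control at both times. The promoters of these 2 genes are shown. They are the 250 bases before the annotated start of each gene in RefSeq (rat GRCr8), 5′ to 3′ on the strand of the gene. Grm7 lies on the plus strand at chr4:145286476-145286725 and Gabbr2 on the minus strand at chr5:66083696-66083945. Capitals mark CAGAC or GGCGCC, searched on both strands, so that CAGAC also appears as GTCTG; the motifs do not overlap each other here.
Grm7: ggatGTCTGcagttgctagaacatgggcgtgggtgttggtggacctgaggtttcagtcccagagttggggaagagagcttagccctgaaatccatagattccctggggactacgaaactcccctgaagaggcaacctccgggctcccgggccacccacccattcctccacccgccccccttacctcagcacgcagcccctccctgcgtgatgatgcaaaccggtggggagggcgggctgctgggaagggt
Gabbr2: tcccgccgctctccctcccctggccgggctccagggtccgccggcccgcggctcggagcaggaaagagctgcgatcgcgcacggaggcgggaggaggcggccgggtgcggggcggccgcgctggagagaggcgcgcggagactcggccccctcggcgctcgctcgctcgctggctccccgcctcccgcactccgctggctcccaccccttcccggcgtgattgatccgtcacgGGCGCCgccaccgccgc
The Grm7 window held 1 copy of CAGAC, none of GGCGCC, and 62% G and C. The Gabbr2 window held 1 copy of GGCGCC, none of CAGAC, and 78.8% G and C. Of the other members past the thresholds of the Methods at 24 hr, Chrna9 had a window with neither motif. Gria2 and Htr3a had no entry, so they could not be searched. Among 27457 promoter windows of the same length, 42.8% held CAGAC and 9.24% held GGCGCC, and the median G and C content was 52%. Of the 66 members, 48 had an entry, and 18 of these (37.5%) held CAGAC and 8 (16.7%) held GGCGCC. A match of letters is a description of the window and not a measured binding site.

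Few receptor genes differed between conditions, and none passed the adjusted test. After 6 hr of BMP-7, 0 of the 66 members passed the thresholds of the Methods (1.2-fold or more in either direction, with p below 0.05 before adjustment), where 1.79% of all genes did. After 24 hr, 2 members were higher than control by these thresholds, Gabbr2 and Htr3a, where 1.77% of all genes were, and 3 were lower, Grm7, Gria2 and Chrna9, where 2.05% of all genes were. Between BMP24h and BMP6h, 1 member was higher at 24 hr (Htr3a, against 1.58% of all genes) and 2 were lower (Grm7 and Gria2, against 1.63%). In the F-test across the 3 conditions, 1 member had a p under 0.005, Grm7, where 0.929% of all genes had. The 2 higher and 3 lower members at 24 hr are 3.03% and 4.55% of the 66, within 2 genes of the background share in each direction. In RNA from a whole culture, fewer cells of a type and less RNA per cell cannot be told apart. BMP6h and BMP24h were compared with the same control arrays, so the 2 comparisons with control are not independent of each other. When replicate numbers were blocked instead of batches, 2 members passed the thresholds at 6 hr, Gabre and P2rx5 (4.58% of all genes), and 5 at 24 hr (5.26% of all genes), where Glra2 was gained and Htr3a lost.

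With p-values adjusted over the 8740 probe sets in limma, 0 members passed 0.05 at 6 hr (0.0422% of all genes), 0 at 24 hr (0.211%) and 0 between the times (0%), and the ordinary two-way analysis of variance also gave 0 in each. At an unadjusted p under 0.05, whatever the fold, there were 0 members at 6 hr (1.79% of all genes), 5 at 24 hr (3.86%) and 3 between the times (3.29%). The lowest adjusted p of any member was 0.0872, for Grm7 at 24 hr. "Higher" and "lower" therefore give the sign of a value and not a change that passed the adjusted test.

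The median log2 fold change of the 66 members was -0.03 at 6 hr and 0.01 at 24 hr, beside -0.03 and 0.01 over all 4736 genes. At 24 hr, 36 members had a positive and 30 a negative fold change, from -0.93 for Grm7 to 0.51 for Grid1, the delta1 subunit of the glutamate receptor family. The values of the BMP24h and control arrays did not overlap for 9 members, 3 higher and 6 lower, which is 13.6% of the members and 13.6% of all genes. At 6 hr there were 5 such members (10.5% of all genes) and between the 2 times 6 (10.4% of all genes). The precision differed by member. The 95% interval of the 24 hr fold change lay within 1.5-fold in either direction for 26 of 66 and within 2-fold for 53 of 66. Of the 66 members, 21 are dim, with a mean under 5.57, the 25th percentile of all probe sets, on a scale whose lowest value is 2.69.

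**Figure D1:**
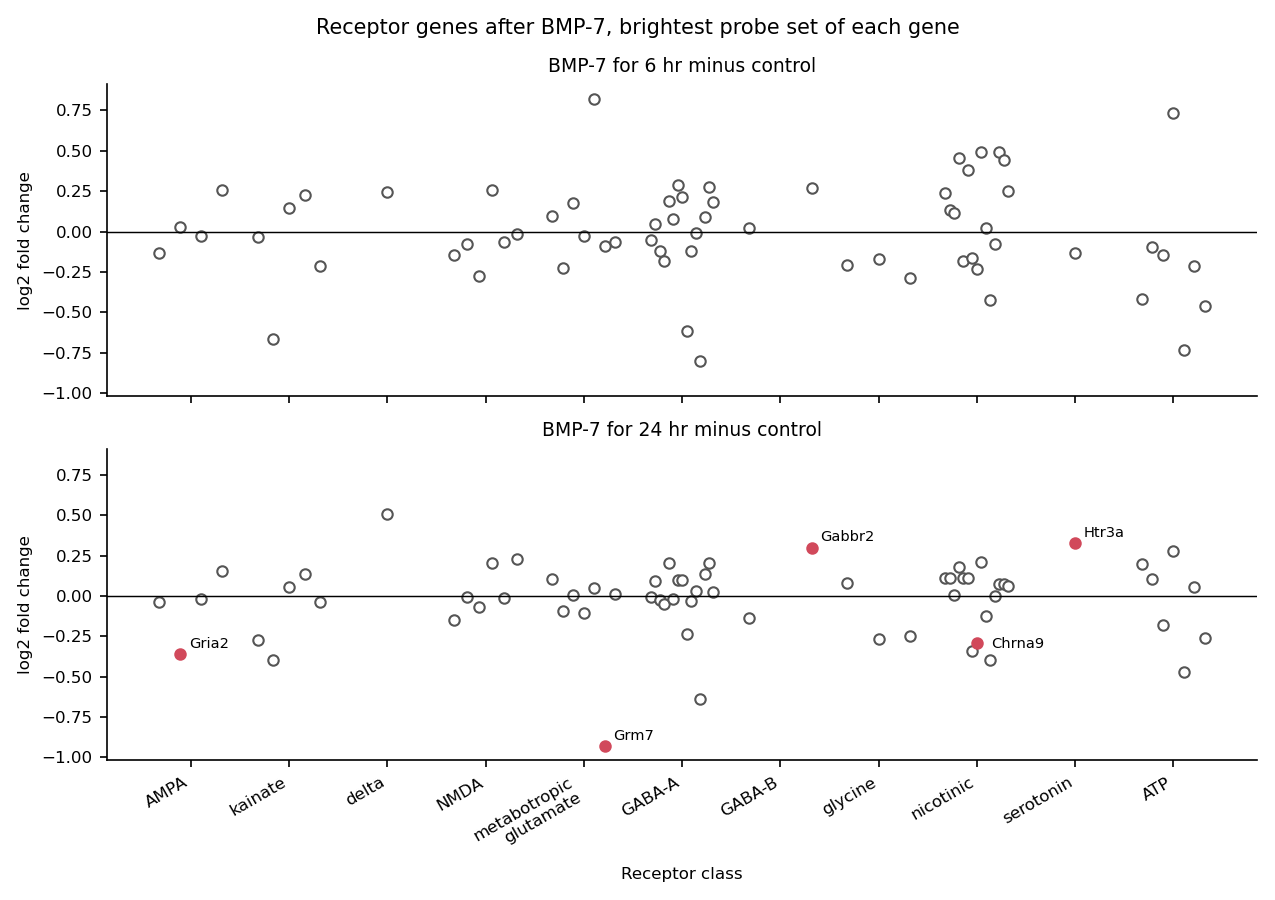
Log2 fold change of each of the 66 receptor genes after BMP-7 for 6 hr (upper panel) and 24 hr (lower panel) against control, grouped by receptor class, with filled red points for genes past an unadjusted p of 0.05 and a 1.2-fold change. Most points lie near 0, no gene is filled at 6 hr, and Grm7 at -0.93 lies lowest at 24 hr.

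Grm7 encodes mGluR7, a metabotropic glutamate receptor of presynaptic terminals that lowers cyclic AMP and transmitter release. Its control arrays read 7.76, 7.72 and 7.95, the BMP6h arrays 7.79, 7.51 and 7.85, and the BMP24h arrays 6.85, 6.74 and 7.05 (replicates 1, 2 and 3). All 3 arrays at 24 hr lay below all 6 others, while the control and 6 hr arrays overlapped. The mean was 7.81 ± 0.12 (SD, n = 3) in control, 7.72 ± 0.18 at 6 hr and 6.88 ± 0.15 at 24 hr. The log2 fold change at 24 hr was -0.93 (SE 0.15, 95% interval -1.28 to -0.58, limma unadjusted p = 0.000299, adjusted p = 0.0872), or 1.91-fold lower, and that between the 2 times was -0.84 (adjusted p = 0.340). At 6 hr the fold change was -0.09, with an interval from -0.44 to 0.26. The 24 hr difference was -0.91 in batch 1, with 1 array per condition, and -0.94 in batch 2.

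Of the other 2 probe sets of Grm7, D16817_g_at, which is named for the same reference sequence as the brightest, gave -0.76 at 24 hr (SE 0.13, adjusted p = 0.135) and X96790_at gave -0.11. X96790_at is dim, with values between 3.74 and 4.34. The first 2 probe sets share their reference sequence and are not independent measurements of Grm7. At all 20 other settings of the analysis Grm7 was lower at 24 hr by the thresholds of the Methods, both against control and against BMP6h, with fold changes against control from -1.02 to -0.60. Against control it passed the adjusted test in 6 of these 20, among them the fit without BMP6h replicate 2 and that with the replicate block (adjusted p = 0.0350), and its adjusted p over the 20 ran from 0.000274 to 1.00.

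The other 6 metabotropic glutamate receptors gave no member past the thresholds, and their 24 hr fold changes ran from -0.10 to 0.10. Grm4, Grm6 and Grm8 belong with Grm7 to the receptors that lower cyclic AMP and respond to the drug L-AP4, and their 24 hr fold changes were 0.01, 0.05 and 0.01. Grm2 and Grm3, which also lower cyclic AMP, gave 0.10 and -0.09, and Grm5, which acts through phospholipase C, gave -0.10. Grm2, Grm3, Grm6 and Grm8 are dim here. Grm6 had the highest 6 hr fold change of all members, 0.82 with a standard error of 0.62, with BMP6h replicate 2 at 7.33 beside 5.28 and 4.67 on the other 2 arrays of its condition.

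AMPA receptors carry most fast glutamate transmission in the brain, and Gria2 encodes the subunit that makes them impermeable to calcium. Gria2 read 6.50, 6.62 and 6.43 in control, 6.58, 6.72 and 6.34 at 6 hr, and 6.13, 6.24 and 6.09 at 24 hr. The 24 hr arrays lay below all others, with no overlap. The 24 hr fold change was -0.36 (SE 0.14, limma, unadjusted p = 0.0300) and that between the times -0.39 (unadjusted p = 0.0214), and neither passed adjustment. The other probe set of the gene, M38061_at, was dimmer and read 5.69, 5.75 and 5.83 in control, 5.85, 4.69 and 5.81 at 6 hr, and 4.54, 4.81 and 5.24 at 24 hr. Its 24 hr fold change was -0.90 (SE 0.33, unadjusted p = 0.0270), of the same sign, with all 3 values below control. The brightest probe set carries the suffix _s_at, which marks probes that can match more than 1 transcript. The call at 24 hr was lost on leaving out control replicate 1 or 2 or BMP24h replicate 1 or 3, with fold changes of -0.37 to -0.31. That between the times was lost without BMP6h replicate 1 or 2 or BMP24h replicate 1 or 3, with values of -0.38 to -0.30.

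Gria1, Gria3 and Gria4, the other AMPA subunits, had 24 hr fold changes of -0.03, -0.02 and 0.15. Their 24 hr arrays overlapped with the control arrays in each case. Among the 5 kainate receptor genes the 24 hr values ran from -0.39 for Grik2 to 0.14 for Grik4. Grik5, an auxiliary subunit of these receptors, was steady at 8.84, 8.90 and 9.04 in control and 8.89, 8.95 and 8.84 at 24 hr. Grik1 and Grik2 are dim, and control replicate 3 of Grik2 read 5.55 beside 4.16 and 3.80. None of the 6 NMDA receptor genes passed the thresholds either. Grin1, the subunit every NMDA receptor needs, had a 24 hr fold change of -0.15, and its 4 probe sets ran from -0.27 to 0.19. Grin2a, a subunit that binds glutamate, gave -0.01 with control values of 7.95, 7.97 and 7.98 and 24 hr values of 7.93, 7.99 and 7.95. The other Grin2a probe set gave 0.24 at 24 hr.

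Grid1 had the largest positive 24 hr value of the members without passing the thresholds. Its control arrays read 7.03, 7.72 and 7.78, its 6 hr arrays 8.07, 7.37 and 7.81, and its 24 hr arrays 8.17, 8.05 and 7.82. The 24 hr arrays lay above the control arrays, narrowly at 7.82 against 7.78. The fold change was 0.51 (SE 0.26, unadjusted p = 0.0874), with 1.15 in batch 1 and 0.19 in batch 2.

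Htr3a encodes the subunit of the serotonin-gated cation channel and was the only serotonin-gated channel gene measured. It read 7.40, 7.51 and 7.32 in control, 7.36, 7.07 and 7.40 at 6 hr, and 7.67, 7.84 and 7.70 at 24 hr. The 24 hr arrays lay above all 6 others. The fold change between the 2 times was 0.46 (SE 0.14, 95% interval 0.14 to 0.78, limma, unadjusted p = 0.0104, adjusted p = 0.939), and that at 24 hr against control was 0.33 (SE 0.14, unadjusted p = 0.0441). All 3 probe sets were higher at 24 hr, with fold changes of 0.33, 0.29 and 0.45, and in each of them the 24 hr and control arrays did not overlap. For U59672_at, the dimmest, the arrays read 5.37, 5.45 and 5.29 in control, 5.25, 5.35 and 5.40 at 6 hr, and 5.90, 5.73 and 5.82 at 24 hr, with an unadjusted p of 0.00536 against control and an adjusted p of 0.503. The brightest 2 probe sets carry the suffix _s_at. The call against control was lost on leaving out any of the 9 arrays other than BMP6h replicate 2, with fold changes of 0.27 to 0.38, while the call between the times was kept without each of the 9. With the replicate block the call against control was lost as well, with a fold change of 0.33 and an unadjusted p = 0.0522, and that between the times was kept (unadjusted p = 0.0138).

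**Figure D2:**
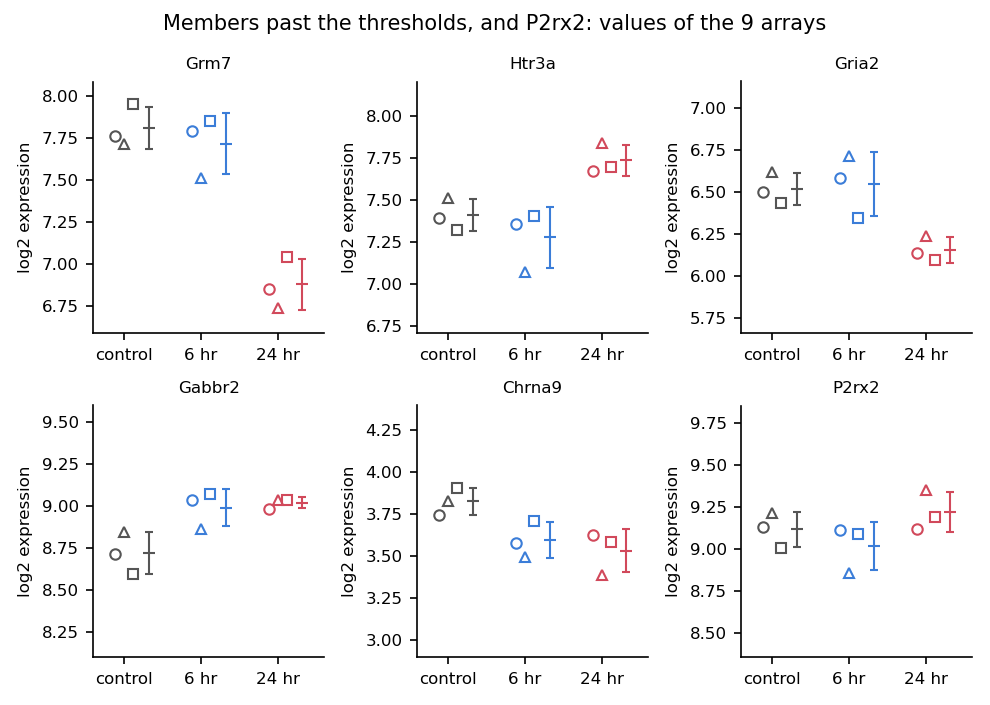
Log2 expression of the 5 members past the thresholds in any comparison, and of P2rx2, on the 9 arrays, by condition (grey control, blue BMP-7 for 6 hr, red BMP-7 for 24 hr). Circles, triangles and squares are replicates 1, 2 and 3, the bars give mean ± SD (n = 3), and the vertical scales differ between panels; the 24 hr arrays of Grm7 and Gria2 lie below and those of Htr3a above all other arrays of the gene.

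GABA-B receptors are pairs of a GABA-binding subunit, Gabbr1, and a subunit that couples to the G protein, Gabbr2. Gabbr2 read 8.71, 8.85 and 8.60 in control, 9.03, 8.86 and 9.07 at 6 hr, and 8.98, 9.04 and 9.04 at 24 hr. All 6 arrays with BMP-7 lay above the 3 control arrays, narrowly for BMP6h replicate 2 at 8.86 against control replicate 2 at 8.85. The fold change was 0.27 at 6 hr (SE 0.12, unadjusted p = 0.0580) and 0.30 at 24 hr (SE 0.12, unadjusted p = 0.0410). The other 2 probe sets did not show this difference, with 24 hr fold changes of 0.10 and -0.11. The call at 24 hr was lost without control replicate 1 or 3, BMP6h replicate 1 or 3, or any of the BMP24h arrays, with fold changes of 0.23 to 0.33. Without BMP6h replicate 2 the 6 hr value was 0.34 and passed the thresholds (unadjusted p = 0.0223), as it also did without control replicate 2. Gabbr1 read 10.41, 10.45 and 10.41 in control and 10.26, 10.13 and 10.46 at 24 hr, and these overlap. Its 24 hr fold change was -0.14, with an interval from -0.42 to 0.15, and its 4 probe sets ran from -0.19 to -0.05.

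GABA-A receptors are chloride channels, and 15 of their subunits were measured, of which 8 are dim. None passed the thresholds at either time at its brightest probe set. The 24 hr fold changes ran from -0.64 (SE 0.54) for Gabrp, the pi subunit, to 0.21 for Gabrr2, a rho subunit. Gabra3, an alpha subunit, read 5.83, 6.05 and 5.22 in control and 5.64, 5.73 and 6.01 at 24 hr. That gives 0.09, with an interval from -0.53 to 0.71, and the arrays of the 2 conditions overlap. The other Gabra3 probe set, X51991_at, gave 0.29 (limma, unadjusted p = 0.223). There the 24 hr arrays lay above the control arrays, narrowly at 5.56 against 5.54. For Gabrb2, a beta subunit, the 2 probe sets disagreed in sign at both times. At 6 hr the brightest gave 0.29, while X15467cds_at gave -0.61 and passed the thresholds (limma, SE 0.23, unadjusted p = 0.0322). At 24 hr the brightest gave 0.10 and X15467cds_at gave -0.41. On that second probe set BMP6h replicate 2 read 4.34 beside 4.98 and 5.09. The 3 glycine receptor genes, which encode inhibitory channels, had 24 hr fold changes of 0.08 for Glra1, -0.27 for Glra2 and -0.25 for Glra3, with Glra2 and Glra3 dim. The other 2 probe sets of Glra1 are dim and gave -0.13 and -0.36.

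The nicotinic subunits of the ganglion differed little between conditions. Chrna3, the alpha3 subunit, read 10.72, 10.66 and 10.82 in control, 10.90, 10.76 and 10.87 at 6 hr, and 10.69, 10.62 and 10.90 at 24 hr. Its 24 hr fold change was 0.01, with an interval from -0.28 to 0.30. Chrnb4, the beta4 subunit, read 9.47, 9.45 and 9.58 in control and 9.45, 9.51 and 9.55 at 24 hr. Its 24 hr fold change was 0.00, with an interval from -0.30 to 0.30, and its other probe set gave -0.06. For both genes the arrays of the conditions overlap, and changes beyond 1.5-fold lie outside the 24 hr intervals. Chrna5, an accessory subunit whose gene lies beside these in the RefSeq annotation, was more variable, with control values of 6.74, 6.74 and 7.30 and 24 hr values of 7.05, 6.56 and 7.49. Its 24 hr fold change was 0.11, with an interval from -0.59 to 0.81.

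Chrna7 encodes the subunit that forms channels of its own and binds alpha-bungarotoxin. It read 7.83, 7.75 and 7.80 in control, 7.76, 7.77 and 7.35 at 6 hr, and 7.28, 8.05 and 7.02 at 24 hr. The 24 hr arrays lay on both sides of control, with a fold change of -0.34 (interval -0.95 to 0.27), and the other 2 probe sets gave 0.14 and 0.17. Without BMP24h replicate 2 the value was -0.67 and passed the thresholds. Chrnb2, the beta2 subunit, read 7.03, 6.97 and 7.16 in control and 6.94, 6.96 and 6.90 at 24 hr, and its fold change was -0.12 with arrays that did not overlap but a closest gap under the spread within either condition. Chrna4, its usual partner in the brain, had 0.18 at 24 hr.

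**Figure D3:**
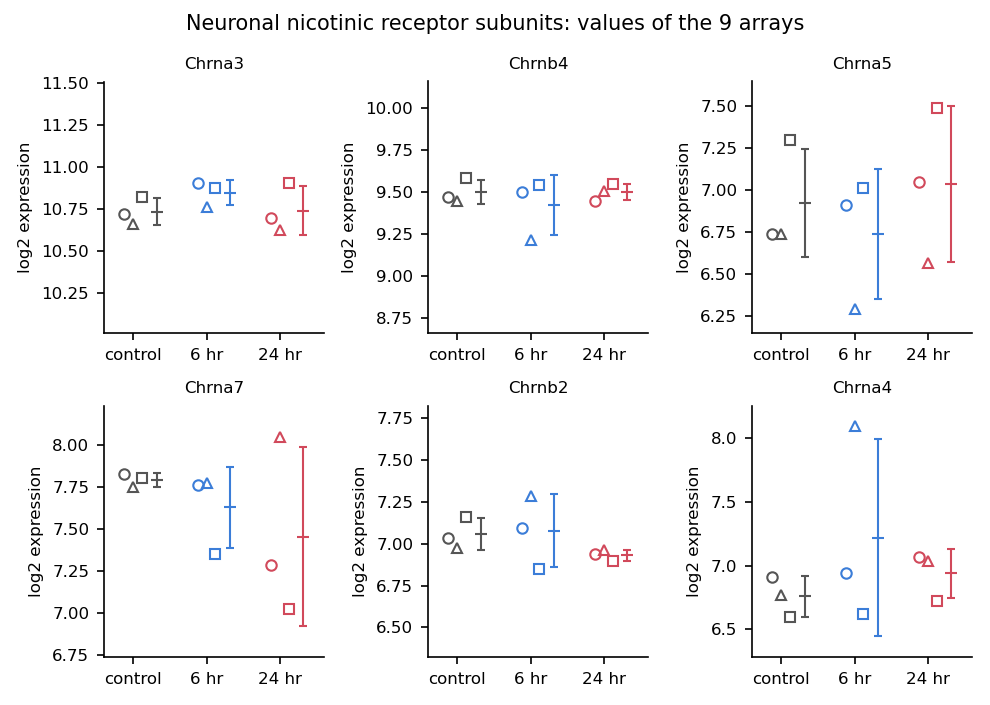
Log2 expression of 6 neuronal nicotinic receptor subunits on the 9 arrays, by condition (grey control, blue BMP-7 for 6 hr, red BMP-7 for 24 hr). Circles, triangles and squares are replicates 1, 2 and 3, the bars give mean ± SD (n = 3), and the vertical scales differ between panels; Chrna3 and Chrnb4 vary little, and BMP6h replicate 2 stands at 8.09 for Chrna4.

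Chrna9, a subunit known from hair cells of the inner ear, was the 1 nicotinic gene past the thresholds. It is dim, with values of 3.74, 3.82 and 3.91 in control, 3.58, 3.49 and 3.70 at 6 hr, and 3.62, 3.38 and 3.58 at 24 hr. All 6 arrays with BMP-7 lay below the 3 control arrays, narrowly at 3.70 against 3.74. The 24 hr fold change was -0.29 (SE 0.13, unadjusted p = 0.0493), and the call was lost on leaving out any array other than BMP6h replicate 2, with values of -0.37 to -0.21. Across the 15 nicotinic genes the 24 hr fold changes ran from -0.40 for Chrnb3 to 0.21 for Chrnb1. Chrnb3 is dim, and its control replicate 3 read 5.84 beside 4.73 and 4.64. Chrnb1, Chrna1, Chrnd, Chrne and Chrng encode the subunits of the receptor at the neuromuscular junction, and their 24 hr values lay between 0.06 and 0.21. At 6 hr those of the same 5 genes lay between 0.24 and 0.50, and on BMP6h replicate 2 each of them had its highest value of the 9 arrays, such as 8.71 for Chrnb1 beside 7.68 and 7.46 on the other 6 hr arrays.

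ATP-gated channels are encoded by the P2rx genes, of which all 7 were measured and none passed the thresholds at its brightest probe set. P2rx2, a subunit of the ATP response of autonomic neurons, read 9.13, 9.22 and 9.01 in control, 9.11, 8.86 and 9.09 at 6 hr, and 9.12, 9.36 and 9.19 at 24 hr. The fold change was 0.10 at 24 hr (interval -0.21 to 0.41) and 0.20 between the times (unadjusted p = 0.173). Its 6 probe sets were all positive at 24 hr, from 0.09 to 0.45. U14414_at passed the thresholds between the times with 0.44 (SE 0.16, unadjusted p = 0.0280), reading 7.91, 7.78 and 8.10 at 6 hr and 8.52, 8.49 and 8.10 at 24 hr, which overlap at 8.10. Of these probe sets 3 carry the suffix _s_at and 2 are named for 1 reference sequence, so they are not independent measurements.

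P2rx3, the partner of P2rx2 in sensory neurons, had 24 hr values of 7.57, 7.66 and 7.09 beside 7.53, 7.63 and 7.70 in control, a fold change of -0.18. P2rx4, found in neurons and macrophages, gave 0.28 with a standard error of 0.51, since control replicate 3 read 5.38 and BMP6h replicate 2 read 8.07 while the other 7 arrays lay between 6.42 and 6.83. P2rx7, a channel of immune cells, is dim and gave -0.26, with control replicate 3 at 5.13 beside 4.11 and 3.73. P2rx1, the channel of smooth muscle, gave 0.62 between the times (unadjusted p = 0.0556), with 5.22, 4.42 and 5.34 at 6 hr and 5.38, 5.88 and 5.58 at 24 hr. These arrays do not overlap, and BMP6h replicate 2 lies farthest from the rest. P2rx5 had the lowest fold change of this class at 6 hr, -0.74 (unadjusted p = 0.0670), with control replicate 3 at 5.94 beside 4.81 and 4.80.

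**Figure D4:**
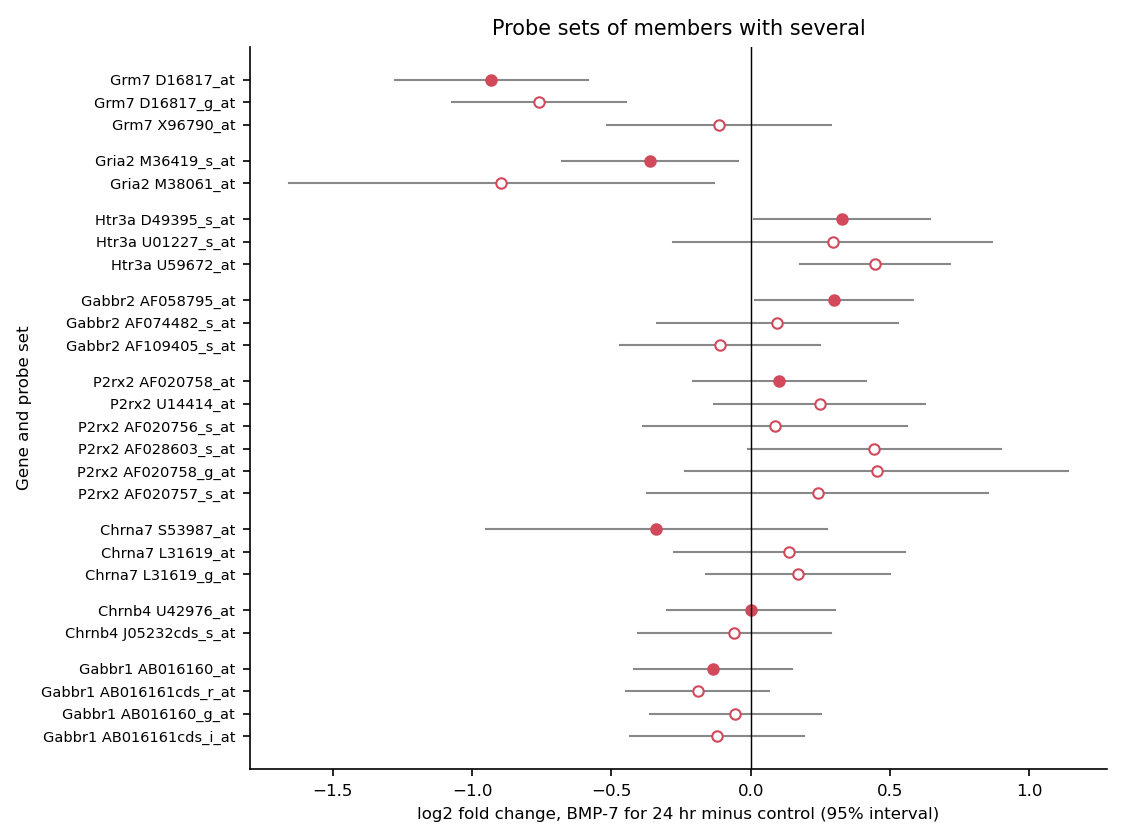
Log2 fold change after BMP-7 for 24 hr against control at every probe set of 8 receptor genes that have several, with 95% intervals from limma (grey lines). Filled points are the brightest probe set of each gene; all 3 of Htr3a and all 6 of P2rx2 lie above 0, those of Gabbr2 and Chrna7 lie on both sides, and the dim probe set X96790_at of Grm7 lies at -0.11.

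Of the 23 members with several probe sets, 13 had the same sign of the 24 hr fold change in all of them and 5 the same sign at 6 hr. No probe set differed from the brightest of its gene by more than 1 log2 unit in any comparison. The other 43 members have 1 probe set each.

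The arrays were unequal. On BMP6h replicate 2, 9 of the 66 members (13.6%) were over 1 log2 unit away from the average of their 2 companion arrays, where 9.99% of all probe sets were. This array was the farthest of its condition for 53 of the 66, a count not made over all genes. On control replicate 3, 6 members (9.09%, against 3.84% of probe sets) were over 1 log2 unit away, and on the other 7 arrays 3 or fewer were. BMP6h replicate 2 held the highest of the 9 values for 20 members (30.3%, against 23.2% of all genes) and the lowest for 24 (36.4%, against 35.9%). Without this array 3 members (Gabbr2, Grin2c and Grm4) and 1.65% of all genes passed the thresholds at 6 hr. At 24 hr 6 members and 5.74% of all genes did, beside 5 members and 3.82% of all genes with it, and Glra2 joined the 5 named above. The median SD within a condition was 0.25 for the members and 0.20 for all genes.

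Genes that work with these receptors were counted from lists chosen for their function. Over all genes, 1.79% passed the thresholds at 6 hr, 2.05% were lower at 24 hr against control, and 1.63% were lower against 6 hr. Of 30 measured genes for receptor scaffolds and trafficking, 0 passed the thresholds at 6 hr and 1 at 24 hr: Sdcbp, the adaptor syntenin, with a 24 hr fold change of -0.37 (SE 0.12, unadjusted p = 0.0184). Dlg4, the postsynaptic scaffold PSD-95, gave -0.05 and Gphn, the scaffold gephyrin of inhibitory synapses, gave 0.08. Of 24 measured genes for making, moving and breaking down the transmitters, 2 were lower at 24 hr, both against control and against 6 hr, and both are monoamine oxidases, which degrade serotonin and noradrenaline. Maoa read 11.33, 11.15 and 11.46 in control and 10.59, 10.41 and 10.86 at 24 hr, a fold change of -0.70 (SE 0.15, adjusted p = 0.294). Maob read 8.96, 8.90 and 9.06 in control and 8.25, 8.06 and 8.20 at 24 hr, a fold change of -0.81 (SE 0.19, adjusted p = 0.348). The 24 hr arrays of both genes lay below all their control arrays. Ache, the enzyme that breaks down acetylcholine, gave -0.14. The median 24 hr fold change was 0.03 for the scaffold list and -0.03 for the transmitter list, beside 0.01 over all genes.

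Markers of the cell types that such cultures can hold were read on the same arrays. Over all genes, 1.79% passed the thresholds at 6 hr, and 1.77% were higher and 2.05% lower at 24 hr. The 11 measured of 14 sympathetic neuron markers, with Th (tyrosine hydroxylase) and Slc6a2 (the noradrenaline transporter) among them, had a mean between 11.64 and 11.88 on every array, and none passed the thresholds. The 11 measured of 14 glial markers had a mean between 7.16 and 7.36 on every array, with 0 past the thresholds. The 14 fibroblast and matrix markers, some of which, such as Thy1, Sparc and Vim, neurons can also transcribe, had a mean of 9.94 to 10.17 in control, 10.02 to 10.10 at 6 hr and 9.71 to 9.91 at 24 hr. By the thresholds Col1a1 was higher and Dcn lower at 6 hr, and 4 were lower at 24 hr, Dcn (-0.73), Lum (-0.65), Mgp (-0.48) and Vim (-0.38), over the same hours in which Grm7 and Gria2 were lower. Of 8 endothelial markers Kdr was lower at both times, with control arrays at 4.76, 5.59 and 7.02 (replicates 1, 2 and 3). The 24 hr arrays of Kdr, at 4.92, 3.99 and 4.28, overlapped these. Of 10 macrophage and blood markers none passed. Whether the makeup of the cultures has a part in the values of Grm7, Gria2, Htr3a or Gabbr2 was not tested.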

How the data were processed

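Transcript levels of cultured rat sympathetic neurons were read on 9 Affymetrix arrays. The authors made the deposited log2 expression values with RMA in Partek Genomics Suite and then removed the batch difference, so batch means of a probe set differ by at most 6.67e-05. Background correction, normalization and summary therefore came from the authors; the values hold no counts, and precision is limited by the number of arrays. No pair of arrays was identical.

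After 59 control probe sets were left out, 8740 were fitted in limma 3.58.1 (R 4.3.3) on terms for condition and batch, leaving 5 residual degrees of freedom, with Benjamini-Hochberg adjustment over all of them. Gene names came from the platform annotation: 7006 probe sets name 1 gene, 308 several and 1426 none here. The p-values measure the spread between the arrays of a condition, after the batch term. These arrays come from independent dissections, so differences between dissections, culture pools and arrays are not separated. The main fit has no term for a dissection shared by the 3 conditions.

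The members, lists, thresholds and alternatives were chosen with earlier results of these data known. Named with values are members past the thresholds of the Methods, those the study's tables list, subunits known from sympathetic neurons, and partner genes past the thresholds; others named as examples, such as Grid1, P2rx1, P2rx5, Gabrb2, Grm6 and the ranges of a class, were picked with their values in view. A self-test on simulated data was run first. Alternatives were the ordinary analysis of variance, a fit lacking the batch term, a replicate block, batch 2 alone, a filter on dim probe sets, repeated quantile normalization, median centring, an intensity trend, array weights, the compared conditions alone, the mean over probe sets, and leaving out each array. The study took the 3 conditions of an experiment from 1 dissection, but the labels do not say that a replicate number marks it. Same-numbered arrays correlated between -0.74 and 0.53 in their deviations, and 2 of 9 pairs exceeded 0.1. This check cannot decide, because after batch removal the deviations of the replicate 1 arrays, alone in batch 1, sum to 0 and must oppose each other, so results that the block changes are given with it.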

Additional observations from a re-analysis of the deposited data

Results flagged for a closer look

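Htr3a, the serotonin-gated channel subunit, had values on opposite sides of the control mean at the 2 times, a pattern searched for among the 66 members. Its 3 arrays at 6 hr lay below the control mean of 7.41, by log2 differences of -0.34 to -0.01, and its 3 arrays at 24 hr lay above it, by 0.26 to 0.43. The 6 hr arrays overlapped the control arrays, here and on the dimmest probe set of the gene. The 6 hr fold change was -0.13 (limma, unadjusted p = 0.363, interval -0.45 to 0.18). The difference of BMP24h minus BMP6h was 0.46 on the log2 scale. It was tested in limma, with an unadjusted p of 0.0104 and an adjusted p of 0.939, so it did not pass adjustment. Without BMP6h replicate 2, the array that stood apart, the difference was 0.35 and the 6 hr fold change against control was -0.02.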

How the results depend on the processing

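Grm7 kept its calls against control at 24 hr and between the times in all 20 alternatives, and no called value changed sign. The count of members past the thresholds at 6 hr was 0 as reported. It was 1 with the ordinary analysis of variance (1.16% of all genes), without a batch term (3.04%) or with an intensity trend (1.75%). Array weights gave 4 (3.53% of all genes, against 1.79% as reported). Leaving out each array gave 0 to 6, with 6 without BMP6h replicate 3 (6.95% of all genes). With the replicate block the count was 2 at 6 hr (Gabre and P2rx5, 4.58% of all genes), 5 at 24 hr (5.26%) and 3 between the times (4.2%). At 24 hr Htr3a was lost and Glra2 gained, and the block changed no other call. With array weights 7 passed at 24 hr, Chrna5, Chrna7, Gria2, Grid1, Grik1, Grm7 and Htr3a (9.44% of all genes, against 3.82% as reported), and 4 between the times (8.04%, against 3.21%). In that setting Grm7, Gria2 (adjusted p = 0.0314) and Grid1 passed the adjusted test at 24 hr, and Grm7 and Htr3a (adjusted p = 0.0447) between the times, where 280 and 198 of all 8740 probe sets did, against 19 and 0 as reported. Gria2, Grid1 and Htr3a passed adjustment in no other setting. The count at 24 hr, 5 as reported, was 1 in batch 2 alone (1.88% of all genes), 2 with median centring (3.61%) and 3 with an intensity trend (4.14%). On leaving out each array the 24 hr count ran from 1 to 6. It was 1, in each case Grm7, without control replicate 1 (3.57% of all genes), BMP24h replicate 1 (2.28%) or BMP24h replicate 3 (3.61%). Without control replicate 3 (2.93%), BMP6h replicate 1 (3.15%) or BMP6h replicate 3 (3.65%) it was 2. It was 3 without control replicate 2 (3.7%), 4 without BMP24h replicate 2 (3.67%) and 6 without BMP6h replicate 2 (5.74%). The count between the times, 3 as reported, ran from 3 to 5 on leaving out each array. It was 5 without BMP6h replicate 3 (8.55% of all genes, against 3.21% as reported) and 4 without BMP24h replicate 2 (2.55%). Where it stayed at 3, between 1.71% and 4.08% of all genes passed. The F-test count of 1 was 0 in batch 2 alone (0.253% of all genes) and 5 with array weights (5.09%, against 0.929% as reported). It was 0 to 1 on leaving out each array, with 0 without BMP24h replicate 1 (0.338% of all genes). The cause of these shifts was not tested. The array weights came from the gene-by-gene method of limma, because restricted maximum likelihood did not converge on these data. These weights ran from 0.093 for BMP6h replicate 2 to 5.76 for BMP24h replicate 1. Of the fold changes of the 17 members refitted for named values and the medians, 998 values kept their direction and side of the thresholds or moved by less than the spread, 49 lost a call, 14 gained one and 13 moved by more than the spread. Chrna9 and P2rx7 are too dim to be in the fit without dim probe sets, so they have no value there. Signal near background limits the 21 dim members.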
